A study of Nothobranchius furzeri with 10 samples.

Results

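The genes described here are 300 genes of turquoise killifish skin whose transcript levels separated 5 of 10 libraries from the other 5, across both treatment groups. The skin came from Nothobranchius furzeri, a short-lived African freshwater fish, and all 10 libraries were from males of the strain MZM-0410p aged 27 weeks, per the labels. A group of 5 libraries was labelled as given 15 pM rotenone, a plant compound that blocks complex I of the mitochondrial respiratory chain, and 5 were labelled as given DMSO, the solvent. The labels do not say whether a library stands for 1 fish, and they give no batch, day or length of treatment.

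The libraries were divided into set A, with rotenone replicates 1 and 5 and DMSO replicates 1, 2 and 5, and set B, with rotenone replicates 2, 3 and 4 and DMSO replicates 3 and 4. These sets are not groups of the study: they were defined from the expression values of these same libraries. Of 26739 gene identifiers in the deposited count table, 18435 passed the filter on low counts, and 623 of these (3.38%) had log2 CPM values in set A that did not overlap those in set B, 299 of them higher in set A (1.62% of tested genes) and 324 lower (1.76%). CPM, the normalised read count, is the count relative to the library's total after TMM scaling, which corrects for differences in library composition. The 300 members are those of the 623 with the largest difference between the set means, 119 higher in set A and 181 lower in set A. The values of the 10 libraries thus chose the members, and the difference between the sets is given below as a description, with no test.

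Skin of a bony fish is a layered living epidermis of keratinocytes and mucous cells over scales and a collagen-rich dermis, with pigment cells, blood vessels and immune cells. A bulk library sums the RNA of all of them. A lower count of a gene can therefore come from fewer cells of a type or from less RNA per cell, and these cannot be told apart here. The identifiers carry no gene names in the sources used here, and 0 of 26739 matched the RefSeq gene table, so no function is assigned to any member and 4 members are named by identifier alone.

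The sets divide the libraries by their order on the second principal component of the whole profile. This component held 20.4% of the variance over the 18435 tested genes. The set A libraries held the 5 lowest scores, from -43.7 (rotenone replicate 1) to -16.5 (DMSO replicate 5), and the set B libraries ranged from -13.1 (DMSO replicate 3) to 72.7 (rotenone replicate 2). The division passed between DMSO replicate 5 and DMSO replicate 3, which lay close together, whereas the set B libraries were spread widely among themselves. The 300 of 18435 tested genes with the largest weight on the component included 55 of the 300 members, and the members held 9.29% of its squared weights. Members were thus far more frequent among these genes than among all tested genes, though most members were not among them. The sets follow the order of the libraries on the component, so such an overlap follows in part from the choice of members. The first component, with 37.5% of the variance, ran across the sets: scores above 50 were found in rotenone replicate 5 and DMSO replicate 2 of set A and in rotenone replicate 3 of set B.

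**Figure D1:**
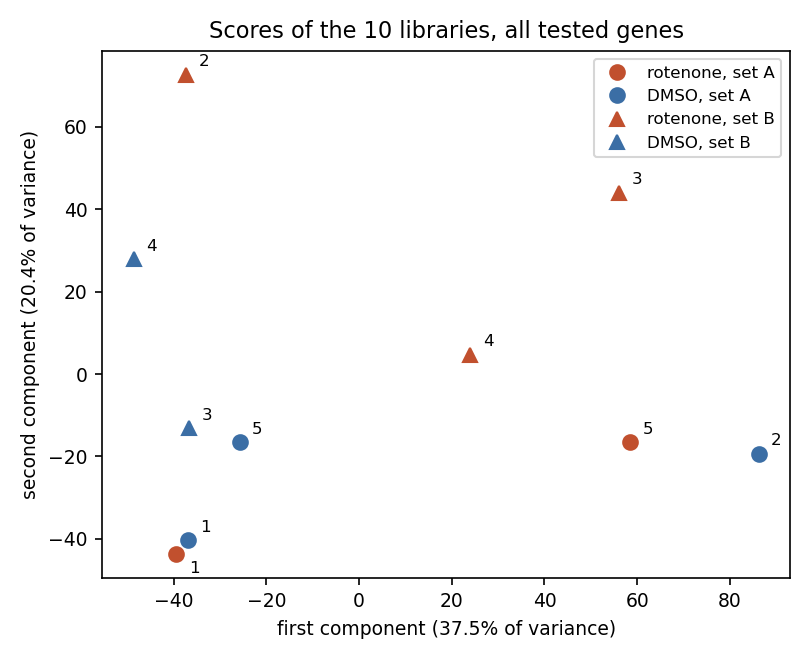
Scores of the 10 libraries on the first (x axis) and second (y axis) principal component of log2 CPM over all tested genes, with 1 point per library, its replicate number beside it, colour for treatment and shape for set. DMSO replicates 5 and 3, at -16.5 and -13.1 on the second component, lie on either side of the division between set A (circles) and set B (triangles).

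Total counts were 25565008 to 42253397 in set A and 18801139 to 31351326 in set B, and 21216 to 21715 genes had at least 1 read in set A libraries against 20885 to 21537 in set B libraries. The 100 most abundant genes took 31.4% to 38.7% of reads in set A and 29.7% to 43.6% in set B. The mean log2 level of the longest 25% of tested genes minus that of the shortest 25%, each gene centred on its own mean, was -0.10 to 0.08 in set A and -0.18 to 0.06 in set B. Each of these measures overlapped between the sets, and rotenone replicate 2 had both the smallest total and the lowest long-minus-short value. Their part in the set differences was not tested.

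Members lower in set A were the larger class with TMM scaling, at 181 against 119 higher. With library totals alone the same rule chose 130 lower and 170 higher in set A, so which class is larger depends on the scaling. In the 181 members lower in set A, the size of the difference between set A and set B had a median of 1.04 on the log2 CPM scale and exceeded 1 in 100 genes. In the 119 members higher in set A the median was 0.87, and 39 exceeded 1. Over all 18435 tested genes the median size of the difference was 0.23. Differences of more than 2 were found in 10 members lower and 3 members higher in set A.

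The members lower in set A did not fall into a low and a high state but formed a gradient with rotenone replicate 2 at its top. Relative to each gene's own mean over the 10 libraries, their median log2 level was -0.85 in rotenone replicate 1, -0.34 in rotenone replicate 5, -0.62 in DMSO replicate 1, -0.58 in DMSO replicate 2 and -0.26 in DMSO replicate 5. In set B the corresponding medians were 1.18 in rotenone replicate 2, 0.41 in rotenone replicate 3, 0.19 in rotenone replicate 4, 0.04 in DMSO replicate 3 and 0.75 in DMSO replicate 4. DMSO replicate 5 and DMSO replicate 3 stood next to each other at the inner ends of the sets. Rotenone replicate 2 held the highest value of all libraries in 139 of the 181 genes. In 125 of the 181 the 2 highest values belonged to rotenone replicate 2 and DMSO replicate 4, in either order. The lowest value within set B belonged to DMSO replicate 3 in 107 genes and to rotenone replicate 4 in 56.

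Members higher in set A ran the other way, with rotenone replicates 2 and 3 lowest. Their median log2 level relative to the gene mean was 0.49 in rotenone replicate 1, 0.38 in rotenone replicate 5, 0.59 in DMSO replicate 1, 0.47 in DMSO replicate 2 and 0.27 in DMSO replicate 5. In set B it was -0.85 in rotenone replicate 2, -0.59 in rotenone replicate 3, -0.33 in rotenone replicate 4, -0.17 in DMSO replicate 3 and -0.18 in DMSO replicate 4. The lowest value of the 10 fell in rotenone replicate 2 for 58 of the 119 genes, in rotenone replicate 3 for 36 and in DMSO replicate 4 for 12. DMSO replicate 4, which was second to rotenone replicate 2 in the members lower in set A, was thus close to DMSO replicate 3 in the members higher in set A.

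**Figure D2:**
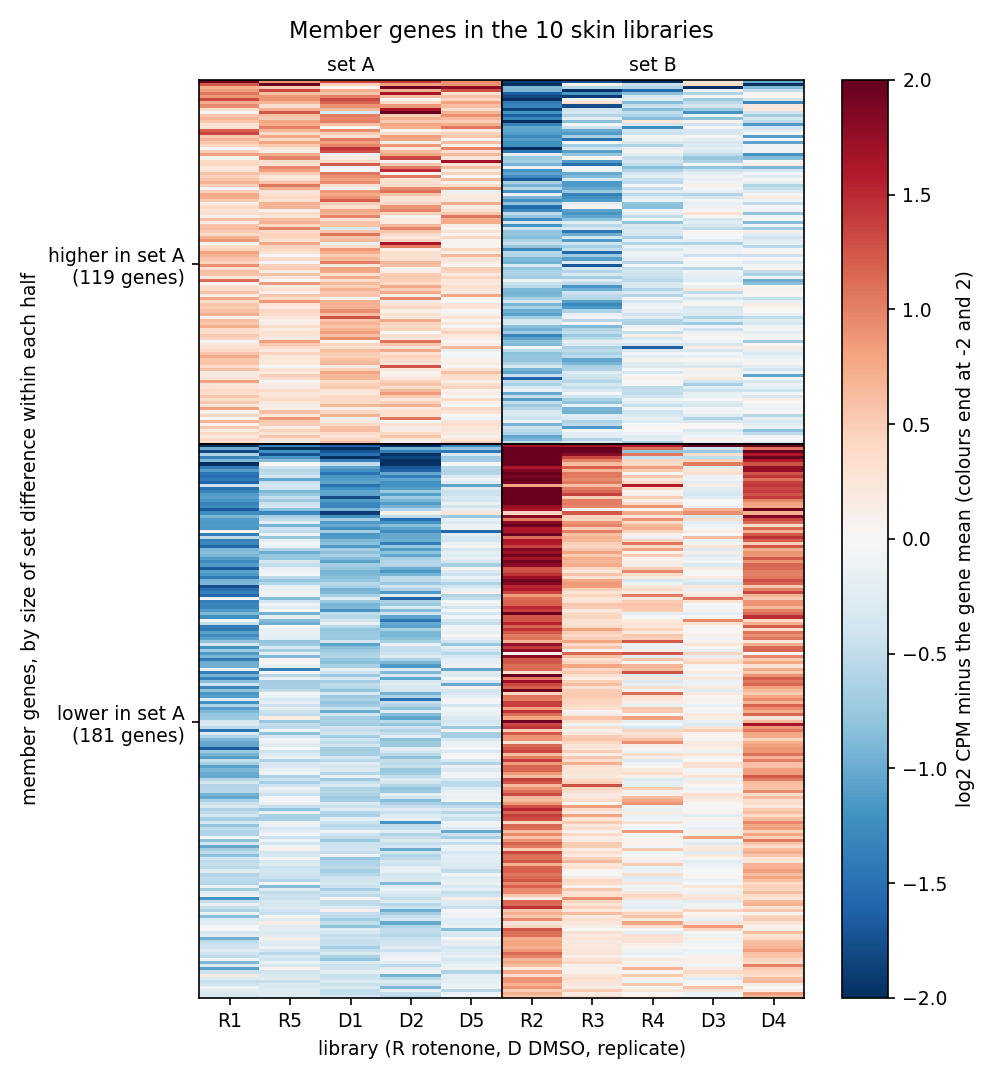
Log2 CPM minus the gene's mean (colour) for the 300 members (rows, ordered by the size of the set difference within each class) in the 10 libraries (columns), with set A on the left and set B on the right. Rotenone replicate 2 (R2) holds the strongest colours among the 181 members lower in set A, followed by DMSO replicate 4 (D4).

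**Figure D3:**
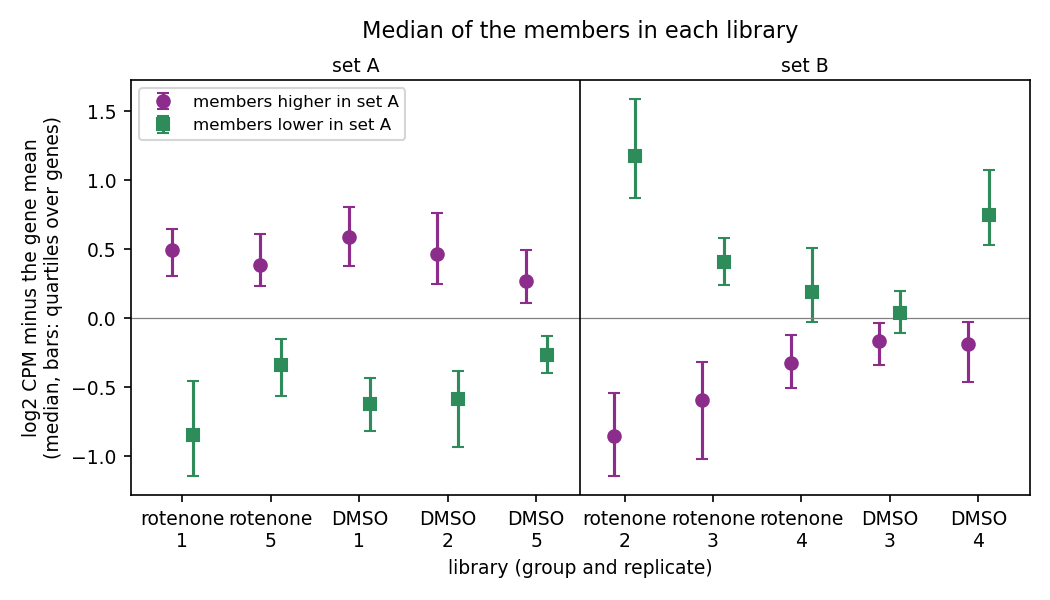
Median over genes of log2 CPM minus the gene's mean in each library (y axis, bars from the lower to the upper quartile over genes) for the 119 members higher and the 181 members lower in set A. The members lower in set A range from -0.85 in rotenone replicate 1 to 1.18 in rotenone replicate 2, with DMSO replicate 5 (-0.26) and DMSO replicate 3 (0.04) at the inner ends of the sets.

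The members were also subdivided by which library was extreme. The 125 members with rotenone replicate 2 and DMSO replicate 4 on top had medians of 1.24 and 0.88 in these libraries, and 0.36, 0.12 and -0.02 in rotenone replicates 3 and 4 and DMSO replicate 3. The other 56 members lower in set A were more even across set B, at 0.86, 0.53 and 0.49 in rotenone replicates 2, 3 and 4 and 0.15 and 0.45 in DMSO replicates 3 and 4. Rotenone replicate 4 led in 15 of these, with a median of 0.91 there. Among the members higher in set A, the 58 lowest in rotenone replicate 2 had a median of -1.06 in it and -0.52 in rotenone replicate 3, and the 36 lowest in rotenone replicate 3 had -1.13 there and -0.66 in rotenone replicate 2. These subdivisions were made after the values were seen, and the rule already fixes that no set B value of a class lies on the set A side, so they describe the values only.

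The spread within the sets was also shared among the members. Set B spanned a wider range of log2 CPM than set A in 217 of the 300 members (72.3%), against 59.4% of all tested genes, and the median range was 1.13 in set B and 0.77 in set A. After each set's mean was subtracted from every gene and all genes were given equal weight, the first component of what remained held 59.2% of the variance of the members lower in set A and 39.6% of that of the members higher in set A. Over all tested genes it held 24.3%. The rule fixed where the sets lay relative to each other, and the demand for no overlap also limits the spread. The sets were also cut along the second component, on which libraries of the same set differ, most widely in set B. Genes chosen by the set difference can thus share that order within the sets. The shared spread follows in part from the choice of members, so these shares are a description.

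The step between the sets was narrow for most members. The space between the nearest values of the sets had a median of 0.10 on the log2 scale and was under 0.1 in 148 members, over 0.5 in 11 and over 1 in 2. It was wider than the range within either set in 2 members. One of these is Nfu_g_1_020701, described next. The other, ranked 264 by difference, had at least 31.4 CPM in every set A library and at most 23.7 CPM in every set B library. At the limit of the list, the gene ranked 300 and the next one, ranked 301 and left out, both differed by 0.64, and their spaces between the sets were 0.10 and 0.0035.

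Nfu_g_1_020701 had the largest difference of the 300 members and the clearest step. Its normalised read count was 0.292 and 0.764 CPM in rotenone replicates 1 and 5 and 0.609, 0.362 and 0.778 CPM in DMSO replicates 1, 2 and 5, all of set A. In set B it was 6.47, 6.53 and 6.15 CPM in rotenone replicates 2, 3 and 4 and 8.58 and 9.01 CPM in DMSO replicates 3 and 4. Unlike the members as a class, this gene was nearly level across set B, and neither rotenone replicate 2 nor DMSO replicate 4 stood far above the rest. The means were 0.561 ± 0.225 CPM in set A and 7.35 ± 1.34 CPM in set B (SD, n = 5 each), a difference of -3.62 on the log2 CPM scale. On the log2 scale of recomputed RPKM with a pseudocount of 1, which shrinks scarce genes, it was -1.003. With deposited RPKM it was -1.03, or -2.81 with a pseudocount of 0.1. Deposited RPKM, here and for the genes below, were divided by library totals recycled down the rows and not by each library's own total. They are therefore not an estimate of equal standing. It rested on 8 to 28 reads per library in set A and 115 to 236 in set B. The gene length implied by the deposited tables was 6077 bases.

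Nfu_g_1_006079, with the highest mean log2 level among the members lower in set A, showed the graded pattern. It had 265 and 680 CPM in rotenone replicates 1 and 5 and 466, 326 and 636 CPM in DMSO replicates 1, 2 and 5. In set B it had 1543, 888 and 822 CPM in rotenone replicates 2, 3 and 4 and 708 and 1588 CPM in DMSO replicates 3 and 4. The sets were kept apart by rotenone replicate 5 and DMSO replicate 3, which differed by 0.06 on the log2 scale, while DMSO replicate 4 and rotenone replicate 2 stood well above the other set B libraries. Means were 475 ± 183 CPM in set A and 1110 ± 421 CPM in set B (SD, n = 5 each), with a log2 difference of -1.24 and at least 7276 reads in every library.

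Nfu_g_1_005013 led the members higher in set A and ranked 6 among all 300. Its normalised read count was 3.69 and 1.20 CPM in rotenone replicates 1 and 5 and 1.67, 1.73 and 1.21 CPM in DMSO replicates 1, 2 and 5. In set B it was 0.112, 0.131 and 0.0373 CPM in rotenone replicates 2, 3 and 4 and 0.727 and 0.263 CPM in DMSO replicates 3 and 4. Set A levels lay close together apart from rotenone replicate 1, and in set B all 3 rotenone libraries were below both DMSO libraries. Set means were 1.90 ± 1.03 CPM in set A and 0.254 ± 0.277 CPM in set B (SD, n = 5 each), with a log2 difference of 2.83. It was 1.06 with recomputed and 1.24 with deposited RPKM on the log2 scale with a pseudocount of 1, which shrinks scarce genes. With a pseudocount of 0.1, deposited RPKM gave 2.95. The set B libraries held only 1 to 20 reads of this gene, so counting error alone is large there.

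Nfu_g_1_022203 was the most abundant member by mean log2 level, and one of the smallest differences in the list, ranked 282. It had 1143 and 1641 CPM in rotenone replicates 1 and 5 and 1436, 1357 and 1288 CPM in DMSO replicates 1, 2 and 5. In set B the values were 849, 561 and 807 CPM in rotenone replicates 2, 3 and 4 and 1035 and 1124 CPM in DMSO replicates 3 and 4. Rotenone replicate 1 of set A and DMSO replicate 4 of set B were almost equal. Means were 1373 ± 185 CPM in set A and 875 ± 219 CPM in set B (SD, n = 5 each), or 0.68 higher in set A on the log2 scale. Recomputed RPKM gave a difference of 0.72 on the log2 scale with a pseudocount of 1. Deposited RPKM, divided by recycled totals, gave 1.05 on the same scale.

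**Figure D4:**
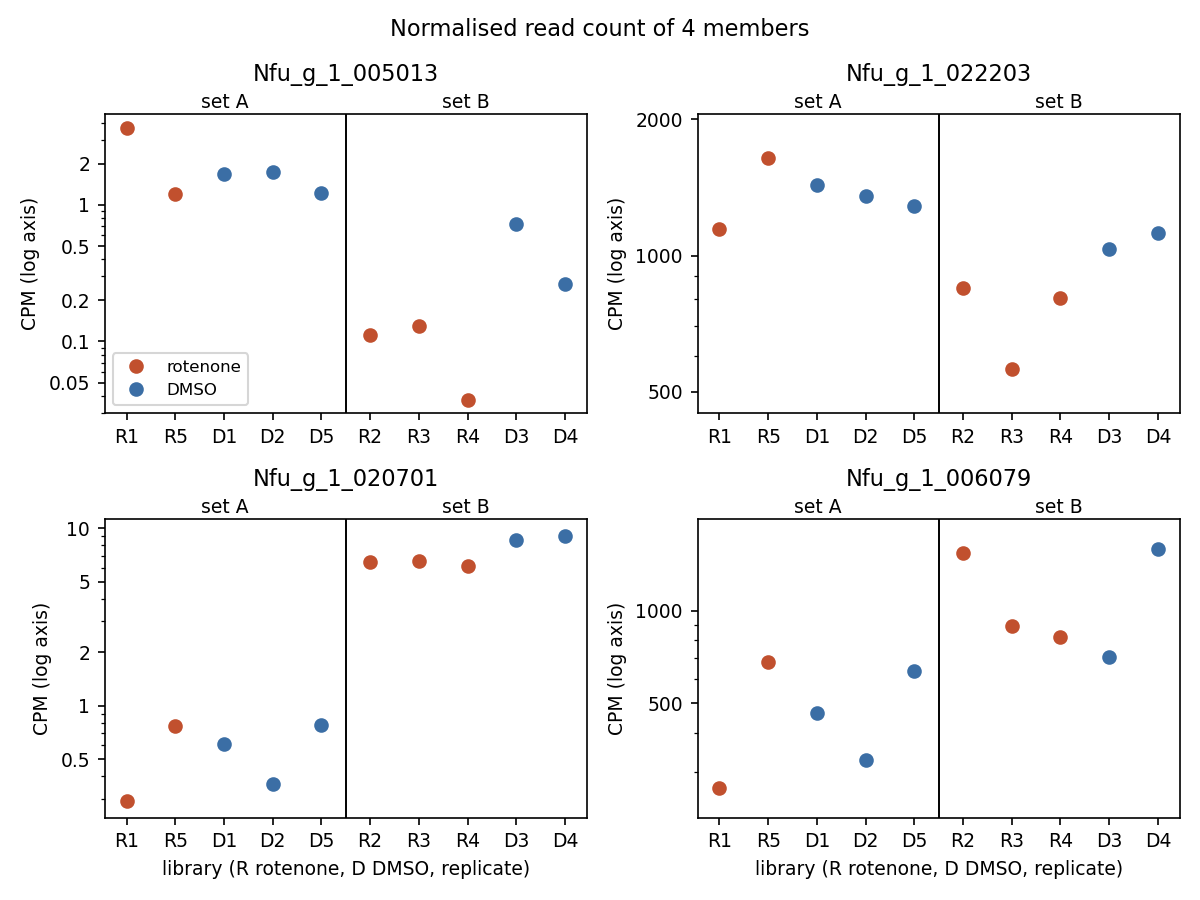
Normalised read count (CPM, log y axis) of the 4 named members in each library (x axis, R for rotenone and D for DMSO with the replicate number), set A left of the line and set B right of it. Nfu_g_1_020701 lies at or below 0.778 CPM in set A and at or above 6.15 CPM in set B, whereas the set B values of Nfu_g_1_006079 run from 708 to 1588 CPM.

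Other members with large differences were of several kinds. The members ranked 2, 3 and 5, all lower in set A, were scarce in most libraries and peaked in rotenone replicate 2, at 12.6, 15.7 and 44.9 CPM, against no more than 0.467, 0.365 and 1.56 CPM in any set A library. Their lowest set B values were 0.618, 0.522 and 1.82 CPM, far below these peaks. The spaces between the sets were 0.36, 0.44 and 0.21 on the log2 scale, against a median of 0.10 over all members. The member ranked 7 was 1.77 to 5.17 CPM in set A and 11.4 to 50.3 CPM in set B, and that ranked 11 was 77.3 to 161 CPM in set A and 289 to 870 CPM in set B. The gene ranked 11 was thus both abundant and well separated, with at least 1922 reads in every library. Of the members higher in set A, the one ranked 9 had 41.5 to 117 CPM in set A and 3.72 to 38.6 CPM in set B, and the one ranked 53 had 128 to 179 CPM in set A and 36.9 to 77.6 CPM in set B.

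The members lower in set A had the higher median level of the 2 classes. Per length, the median over genes of the mean RPKM, recomputed from the counts with each library's own total and the implied gene lengths, was 4.19 for the members higher in set A and 10.9 for the members lower in set A, against 4.97 for all tested genes. Mean levels above 100 CPM were reached by 6 of 119 members higher in set A (5.04%) and 25 of 181 members lower in set A (13.8%), against 7.27% of tested genes. Levels below 1 CPM were seen in 15 members higher in set A (12.6%) and 9 members lower in set A (4.97%), against 8.71% of tested genes. Median gene lengths were 2324 bases for members higher in set A and 2474 bases for members lower in set A, against 2717 bases for all tested genes, with wide quartiles in each. None of the members, 0 of 300, was among the 100 most abundant of the 18435 tested genes, and 0 had a library without reads, against 0.445% of tested genes. Both shares over all tested genes are small, so neither count of 0 is read as a trait of the members.

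Together the members took a small share of the reads. The members lower in set A held 0.551% and 0.717% of reads in rotenone replicates 1 and 5 and 0.666%, 0.556% and 0.892% in DMSO replicates 1, 2 and 5, against 2.13%, 1.32% and 0.988% in rotenone replicates 2, 3 and 4 and 1.04% and 1.99% in DMSO replicates 3 and 4. The members higher in set A held 0.507% to 0.627% of reads in set A libraries and 0.240% to 0.384% in set B libraries. The share on the members lower in set A was thus highest in rotenone replicate 2 and DMSO replicate 4, with rotenone replicate 4 and DMSO replicate 3 near the highest set A library.

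Rotenone against DMSO is the comparison the study's labels set up, and no member was called in it. With edgeR's quasi-likelihood test on the whole table, 0 of 300 members passed an adjusted p under 0.05, as did 0 of 18435 tested genes (0%), and the smallest adjusted p among the members was 0.61. At an unadjusted p under 0.05 there were 2 members (0.667%), against 7.66% of all tested genes. DESeq2 called 0 of the 299 members to which it gave an adjusted p, against 231 genes (1.16%) of its table. A low count follows in part from the choice of members: each treatment group holds libraries of both sets, so a member's values are widely spread within both groups, and 0 members had rotenone values that did not overlap the DMSO values, which the rule makes impossible (1.77% of tested genes had none). Where libraries are not separate fish, a p-value measures technical spread.

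The direction of the rotenone differences followed the make-up of the sets. Set A holds 2 rotenone and 3 DMSO libraries, so a gene higher in set A is lower in rotenone by 0.2 of its set difference from that alone. The log2 fold change of rotenone over DMSO was below 0 in 113 of 119 members higher in set A (median -0.33, where the make-up of the sets gives -0.17) and above 0 in 172 of 181 members lower in set A (median 0.33, where it gives 0.21). The fold changes come from the edgeR fit and the make-up values from means of log2 CPM. Their signs can be set side by side, but the distance between their sizes is not interpreted. The median over all tested genes was 0.03. With libraries scaled by their totals alone these medians became -0.47, 0.18 and -0.11, and the members kept the same prevailing signs, in 115 of 119 and 155 of 181.

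**Figure D5:**
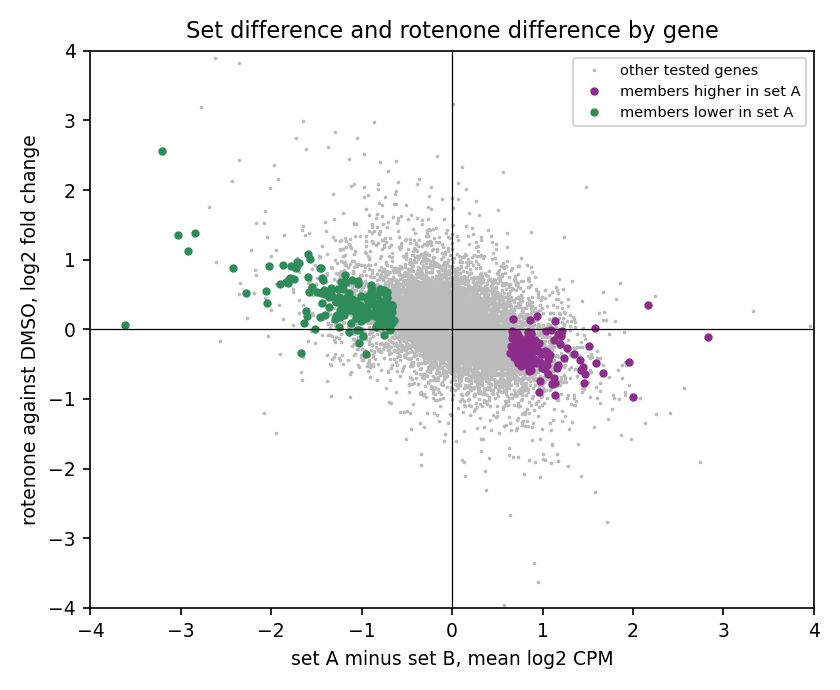
Log2 fold change of rotenone over DMSO (y axis) against the set A minus set B difference in mean log2 CPM (x axis), with 1 point per tested gene. The members higher in set A lie mostly below 0 (113 of 119) and those lower in set A mostly above 0 (172 of 181), a slope that the unequal make-up of the sets produces in part, and 29 other tested genes lie beyond the axes.

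The median treatment difference within set B was larger in size than that within set A in both classes of members. Among members higher in set A, the rotenone minus DMSO difference in mean log2 CPM had a median of -0.43 within set B (below 0 in 96 of 119) and of -0.01 within set A (below 0 in 62 of 119). In 41 of the 119 (34.45%) all 3 rotenone libraries of set B were below both DMSO libraries, against 10.8% of all tested genes. Among members lower in set A the median difference was 0.18 within set B (above 0 in 144 of 181) and -0.06 within set A (above 0 in 71 of 181). All 3 rotenone libraries of set B were above both DMSO libraries in 11 of the 181 (6.08%), against 11.7% of tested genes. Within set B the scores on the second component were 72.7, 44.1 and 4.73 in rotenone replicates 2, 3 and 4 and -13.1 and 27.9 in DMSO replicates 3 and 4. Members were chosen between sets cut along this component, so the treatment differences within set B follow in part from that choice. Set B values entered the choice of the members and each set holds only 2 libraries of one treatment, so these differences were not tested.

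None of the 4 named members differed between treatments beyond the spread of the libraries. Nfu_g_1_020701 averaged 4.04 ± 3.21 CPM in rotenone and 3.87 ± 4.504 CPM in DMSO skin (SD, n = 5 each), a log2 fold change of 0.07 ± 1.04 (SE, edgeR adjusted p = 0.99). Nfu_g_1_006079 averaged 840 ± 462 CPM in rotenone and 745 ± 494 CPM in DMSO skin (log2 fold change 0.17 ± 0.49, edgeR adjusted p = 0.96). For Nfu_g_1_005013 the means were 1.03 ± 1.56 CPM in rotenone and 1.12 ± 0.628 CPM in DMSO skin (log2 fold change -0.12 ± 0.97, edgeR adjusted p = 0.99). Nfu_g_1_022203 had the narrowest error, at 1000.2 ± 414 CPM in rotenone and 1248 ± 165 CPM in DMSO skin (log2 fold change -0.32 ± 0.25, edgeR adjusted p = 0.83). The standard errors of the first 3 are wide, and that of Nfu_g_1_022203 also leaves room for a difference. These values therefore do not show equal levels for any of the 4 members. With each library left out in turn the log2 fold change ran from -0.24 to 0.63 for Nfu_g_1_020701, reversing in 6 of 10, from -0.18 to 0.64 for Nfu_g_1_006079, reversing in 2, and from -1.55 (without rotenone replicate 1) to 0.18 for Nfu_g_1_005013, reversing in 5. For Nfu_g_1_022203 it stayed below 0 in all 10, from -0.58 to -0.17. Each library left out changes how far the treatment groups differ in their share of set A libraries. Every reversal came where that difference became smaller, so these shifts follow in part from the make-up of the sets.

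Of the 2 members with an unadjusted p under 0.05, the one ranked 2 averaged 4.02 ± 5.20 CPM in rotenone and 0.691 ± 0.693 CPM in DMSO skin (SD, n = 5 each, edgeR adjusted p = 0.64). Its rotenone values ran from 0.0664 to 12.6 CPM and enclosed the DMSO values of 0.0870 to 1.88 CPM. The member ranked 149 averaged 0.479 ± 0.204 CPM in rotenone and 0.897 ± 0.394 CPM in DMSO skin (edgeR adjusted p = 0.61), and its groups overlapped too. The count at an unadjusted p depended on single libraries, being 27 of 300 (9%) without rotenone replicate 1, 21 (7%) without DMSO replicate 4 and 16 (5.33%) without rotenone replicate 5. Over all genes tested in the same fits the shares were 10.2%, 7.72% and 8.78%, each above that of the members. The count was 4 without DMSO replicate 3 and 0 or 1 with any other library left out. Removing rotenone replicate 1 or 5 or DMSO replicate 3 or 4 makes the treatment groups differ more in their share of set A libraries. Removing any other library makes them differ less. These counts therefore follow in part from the make-up of the sets.

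Which genes are members depended on the scaling and on single libraries. With RLE factors 289 of the 300 still had no overlap between the sets. With library totals alone 172 did, the non-overlapping genes were 216 higher and 152 lower in set A (58.7% higher, against 48% with TMM), and all 300 kept the sign of their difference. The rule chose 120 of the 300 again in each of the 10 sets of 9 libraries, 31 higher and 89 lower in set A. The fewest, 130, were chosen again without DMSO replicate 3, followed by DMSO replicate 5 left out (154), rotenone replicate 5 or DMSO replicate 4 left out (179 each) and rotenone replicate 4 left out (184). The number of genes with no overlap, 623 with all libraries, was 1424 when DMSO replicate 3 was removed. It was 1134 and 1022 when DMSO replicates 5 and 2 were removed in turn, and 1128 and 994 for rotenone replicates 4 and 5. With fewer libraries fewer values can overlap, so a rise in that number follows from the removal. The added genes compete for the 300 places by the size of their difference. A member not chosen again with a library left out therefore need not have lost its separation.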

How the data were processed

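The authors deposited raw read counts per gene and RPKM values (reads per gene length and library total) for the same 26739 identifiers in 10 libraries. The kit was Illumina's TruSeq RNA, per the labels' protocols. The submitters' processing notes name featureCounts 1.4.6-p4, STAR 2.4.1d and bcl2fastq 1.8.4. Genome build, annotation and strand setting: not given in the sources used here. Overlapping and antisense genes and near-identical copies can share reads.

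The deposited RPKM values were checked against the counts in 4793 genes: with each library's own total the implied gene length varied by a median CV of 31.4%, and with the totals recycled down the rows by 0.0019%. Gene lengths were recovered with the recycled totals, and RPKM were recomputed from counts.

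Low genes were removed with filterByExpr (groups of 5, minimum count 10; 99.9% of reads kept) and scaled with TMM, and log2 CPM used a prior count of 2. Rotenone against DMSO was tested on the counts with edgeR 4.0.16 (glmQLFit with robust=TRUE, glmQLFTest) in R 4.3.3, two-sided, with no covariate and Benjamini-Hochberg adjustment over all tested genes at 0.05. The test and the member rule were run on simulated counts to check the code. These counts held no axis shared by the libraries, and the steps given were far larger than those of the members. That run therefore says nothing about the members themselves. Alternatives were RLE and library-total scaling, a minimum mean of 50 counts and no filter, DESeq2 1.42.0, 2 surrogate variables (sva 3.50.0), prior counts of 0.5 and 8, deposited RPKM with pseudocounts of 1 and 0.1, and each library left out. RPKM recomputed from counts was added after seeing the data.

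The members, sets and lists were chosen with earlier results of these data known. Named genes were, in each class, the member with the largest difference and that with the highest mean log2 CPM. The 10 marker lists and 6 gene lists could not be matched, as 0 identifiers carry a symbol. Replicate numbers follow the order of deposition.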

Additional observations from a re-analysis of the deposited data

How the results depend on the processing

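The count of genes called in rotenone against DMSO at an adjusted p under 0.05 was 0 with edgeR and became 231 with DESeq2, 18 with library totals only and 15 with 2 surrogate variables, and it stayed at 0 in the other 3 alternatives and with any library left out. The 2 members at an unadjusted p under 0.05 became 7 with DESeq2, 7 with library totals only, 11 with 2 surrogate variables and 0 with a mean of at least 50 counts (264 members left). These are 2.34%, 2.33%, 3.67% and 0% of the members tested, against 8.19%, 9.75%, 10.8% and 7.91% of all genes in the same fits. With a library left out there were 0 to 27, which follows in part from the changed make-up of the sets. The number of genes with no overlap between the sets was 368 with library totals only, 367 with recomputed RPKM and 689 to 1424 with a library left out. Of the 300 members, 172 were chosen again with library totals only, 160 with recomputed RPKM, 49 and 58 with deposited RPKM (pseudocounts 1 and 0.1), whose values were divided by recycled totals, and 130 to 269 with a library left out. All 4 named members kept the sign of their set difference, but not always its size, in every alternative that kept the gene. The choice of members favours a kept sign. In the scarce genes the size depended on the pseudocount. With deposited RPKM it was -1.03 (pseudocount 1) and -2.81 (pseudocount 0.1) for Nfu_g_1_020701, against -3.62 with log2 CPM. For Nfu_g_1_005013 it was 1.24 and 2.95, against 2.83 with log2 CPM. Nfu_g_1_005013 was lost with a mean of at least 50 counts. The sign of the rotenone difference did change: Nfu_g_1_020701 had a log2 fold change of -0.094 with library totals only and -0.13 with 2 surrogate variables, and Nfu_g_1_006079 had -0.10 with 2 surrogate variables. The second surrogate variable ran from 0.44 in rotenone replicate 1 to -0.60 in rotenone replicate 2, the libraries at the ends of the second component. The fit with 2 surrogate variables thus adjusts in part for the axis that divided the sets. With a library left out they ran from -0.24 to 0.63 and from -0.18 to 0.64, and Nfu_g_1_005013 ran from -1.55 to 0.18. The shifts with a library left out follow in part from the changed make-up of the sets. The log2 fold change of Nfu_g_1_022203 stayed below 0 in every alternative and with any library left out. Where no construction is named, the cause was not tested. No paired analysis was possible because the labels pair no libraries.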

Other observations

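The rule leaves out genes with large but overlapping differences. Of the 18435 tested genes, 47 had set means that differed by more than 2 on the log2 CPM scale, and 13 of these are members. The largest difference over all tested genes was 5.29, in a gene whose sets overlapped. Dixon's gap test for a library that stands apart within its treatment group was run on 18 sets of 5 values (the named members, the class medians, the shares of reads and the second component), and it singled out 0. These values come from the choice of the sets and members, and each treatment group holds libraries of both sets. Such a split works against a gap at a single library, so the result does not show that no library stands apart.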
